A study of Mus musculus with 10 samples.

Results

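Chemokines are small secreted or membrane-held proteins that attract leukocytes and other cells along a gradient by binding to receptors on their surface. Most belong to the CC or the CXC family, named after the spacing of their first cysteines, and fibroblasts make several of both. Some are induced by inflammatory signals and others, called homeostatic, are made in resting tissue, and the results are ordered by such roles. Their genes were taken from the count table by symbol, as all entries whose symbol is Ccl, Cxcl, Cx3cl or Xcl followed by a number and at most 1 letter, with the platelet chemokine genes Ppbp and Pf4 added. This rule took 40 of 23197 genes, and Ccl28 was not among them. Of the 40 members, 31 had at least 1 unique molecular identifier (UMI, which counts a captured RNA molecule once) in a cell that was kept, and 9 had none. The rule used no measured value.

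The study followed single cells of mouse embryonic fibroblasts (MEFs) through a chemical treatment, C6FAE, that leads to cells like those of the extraembryonic endoderm (XEN). C6FAE holds the GSK3 inhibitor CHIR99021, the ALK5 inhibitor Repsox, the cAMP agonist Forskolin, the retinoic acid receptor agonist AM580 and the DOT1L inhibitor EPZ004777, and d0 cells were untreated MEFs. The recipe of the medium in the methods also lists valproic acid, which the name C6FAE leaves out, so its presence is not settled. The MEFs were made from trunks of ICR embryos at E13.5 without inner organs, and cells were picked by hand, so the sample is neither a clone nor a sorted cell type.

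The 12 groups were d0, d1, d2, d3, d4, d5, d6p, d8, d12 and d20, named after the day of collection, and d8c and d12c, whose cells came from colonies picked on days 8 and 12. What the p in d6p stands for is not stated. A minimum of 4000 detected genes per cell left 670 of 808 cells: 72 at d0, 40 at d1, 83 at d2, 38 at d3, 77 at d4, 36 at d5, 86 at d6p, 62 at d8, 20 at d8c, 67 at d12, 51 at d12c and 38 at d20. The largest losses were at d12c, with 45 cells removed of 96, and at d20, with 34 removed of 72, while d1 and d5 lost none. Kept cells held a median of 510306 UMIs, from 17633 to 6004864, with group medians from 195480 at d20 to 1055206 at d2. Spike-in RNAs (ERCC), left out here, made up 3.04% of counts at d0, 11.4% at d12 and 18.0% at d20. Levels are given as CPM, the UMIs of a gene scaled to a total of 1000000 per cell, averaged over the cells of a group. The 10 labelled batches cannot be told apart in the cell names, so the table was treated as 1 sample, cells were not used as replicates and no difference was tested. Intervals printed with sums of UMIs (exact Poisson) and shares of cells (exact Clopper-Pearson) cover counting error only, and where no cell had a UMI the limit given is instead a floor of 3 cells out of those measured, which takes cells as independent. Because a UMI counts a molecule and not its length, levels of different members are set side by side per molecule, although capture can differ between transcripts.

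Marker levels went with the labels of the groups. The summed level of 9 fibroblast markers was 3178 CPM at d0, 9592 at d12 and 292 at d20, where the receptor gene Pdgfra made up 201 CPM of it, more than its 28.2 CPM at d0, and the collagen gene Col1a1, at 1237 CPM at d0, stood at 3.63 CPM. The summed level of 10 XEN markers was 215 CPM at d0, with Sall4 and Foxa2 at 0, 267 at d12, 1143 at d12c and 2034 at d20, where Sox17 led with 982 CPM. By the log2 scale defined below, 3 of the 6 XEN markers that passed the filter were higher at d12 than at d0, beside 9.58% of all genes. They were Sox17 (70.8 against 0.113 CPM, 6.01), Gata4 (3.54) and Lama1 (2.45), and none was lower, beside 5.27%. These 3 passed the filter by their d12 level alone, so a lower level could not have been counted for them. The d12 medians of Sox17 and Gata4 were 5.65 and 0.868 CPM, below their means of 70.8 and 17.3 CPM. Of the 9 fibroblast markers, Pdgfra (3.87), Twist2 (3.13) and Col3a1 (2.08) were higher at d12 than at d0, beside 9.58%. Fbn1 was lower (-2.01), beside 5.27%, and the other fibroblast markers were not past 2. The d12 group thus had the higher fibroblast sum together with higher means of some XEN markers, and the d20 group the higher XEN sum. Of 13 leukocyte markers, the sum lay between 9.31 CPM at d6p and 78.8 CPM at d12, where Cd14 made up 48.5 CPM and Ptprc, Itgam, Adgre1, Tyrobp, Fcer1g, Laptm5 and Aif1 were at 0. Cd68 stood at 17.9 CPM in the d12 group, Csf1r at 6.36 CPM with a UMI in 43 of 67 cells, and Cd52 at 5.30 CPM. Of 4 that passed the filter, Cd14 (4.17) and Cd52 (2.65) were higher than at d0, beside 9.58% of all genes. None was lower, beside 5.27%. Cd14 and Cd52 passed by their d12 level alone. At d0 the sum was 16.5 CPM, with 9 of 13 markers above 0, Cd68 as the most abundant at 10.4 CPM and Adgre1, Tyrobp, Laptm5 and Cd52 at 0, and at d20 it was 18.6 CPM with 3 of 13 above 0, of which Laptm5, at 5.66 CPM, was higher than at d0 (2.74). Laptm5 was 1 of 2 that passed for d20 against d0, beside 9.03% of all genes, and passed by its d20 level alone. Endothelial markers (7 genes) summed to 51.9 CPM at d0, mostly Cd34 at 44.5 CPM with Pecam1 and Tie1 at 0, to 45.1 CPM at d12, mostly Kdr at 36.2 CPM with Pecam1 and Emcn at 0, and to 4.58 CPM at d20. Platelet and megakaryocyte markers (5 genes) summed to at most 8.45 CPM, at d8, where Gp1bb led, and Gp9 was at 0 in every group.

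A feature of the table bears on every share of cells given here. Cell names carry a running number within a group, and within a range of these numbers nearly every cell held a similar low level of a gene that a few cells held at a very high level. At d4, each of the 40 cells numbered 1 to 48 held at least 49.4 CPM of Ccl8, with a median of 64.8 CPM, while the highest held 74197 CPM; of the 37 cells numbered above 48, only 9 had a UMI of it. Ccl20 had a UMI in 20 of 21 d12c cells numbered up to 24, none above 18.5 CPM, and in 0 of the 30 d12c cells numbered above 48, which allows a share with a UMI of up to 10% (3 of 30). Whether UMIs passed between cells processed together was not tested, and what the ranges stand for is not stated. Shares of cells at 20 or 100 CPM or more are therefore given for many genes, although the band of some, such as Ccl8 at d4, lies above 20 CPM. Other shares with a UMI stand alone. For some genes, values of the ranges 1 to 48 and above 48 are given beside pooled values. The groups d1, d3, d5 and d8c have no cell numbered above 48.

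Chemokine RNA was most abundant at d12 and nearly absent at d20. The summed level of all members averaged 2902 CPM at d0, 1487 at d1, 865 at d2, 772 at d3, 1989 at d4, 381 at d5, 1833 at d6p, 1716 at d8, 1082 at d8c, 4022 at d12, 1074 at d12c and 57.8 at d20. Medians over cells were lower, at 1349.8 CPM at d0, 161 at d5, 3133 at d12 and 38.1 at d20. Means thus owed much to few cells: the tenth of cells with the highest sums held from 33.6% of the summed CPM at d12 to 77.2% at d4. At d4 a single cell decided the mean, which was 916 CPM without it, and in that cell chemokine transcripts made up 8.35% of all UMIs. Of d12 cells, 52 of 67 carried a sum of at least 1000 CPM, against 42 of 72 at d0, 2 of 36 at d5 and 0 of 38 at d20. The number of members with a UMI in a cell had a median of 8 for d0, 15 for d12, 5 for d12c and 1 for d20; the medians were 4, 9, 3 and 1 after thinning each cell to 50000 UMIs. Over all 12 groups d12 had the highest and d20 the lowest median both ways, while d2 stood above d0 before thinning (9) and below it after (3).

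The ranges of cell numbers differed within some groups. The mean sum was 2412 CPM in d0 cells numbered 1 to 48 and 3628 CPM in those above 48, 571 and 1214 at d2, 3569 and 281 at d4, 1781 and 1880.3 at d6p, 1816 and 1507 at d8, 4192 and 3675 at d12, 2335 and 191 at d12c, and 60.05 and 49.3 at d20. The d4 and d12c groups were the most uneven, and the d20 group was low in both ranges.

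The make-up of this sum differed between groups as well. Genes that attract monocytes through CC receptors (Ccl2, Ccl7, Ccl8, Ccl12, Ccl6 and Ccl9) made up 87.3% of the d0 sum, against 77.1% at d4, 24.4% at d8 and 38.7% at d12, with 0.762% left at d20; without the cell with the highest sum the d4 share was 49.8%. Neutrophil-attracting CXC genes with the ELR sequence before the first cysteines (Cxcl1, Cxcl2, Cxcl3, Cxcl5, Cxcl15 and Ppbp) made up 3.08% at d0, 18.0% at d1, 30.5% at d12 and 0 at d20. Genes grouped as homeostatic, which are expressed in resting tissues, made up 8.74% at d0, 65.7% at d8, 25.8% at d12 and 57.4% at d20, with Cxcl14 as the largest at d0, d8 and d12 and Ccl27a at d20. The chemokine RNA of untreated MEFs was thus mostly monocyte-attracting, that of d8 mostly homeostatic, and that of d12 spread over all of these roles. Of all member UMIs in kept cells, Ccl7 held 28.3% (254297 UMIs), Ccl2 20.4% (183513) and Cxcl14 15.2% (136897).

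**Figure D1:**
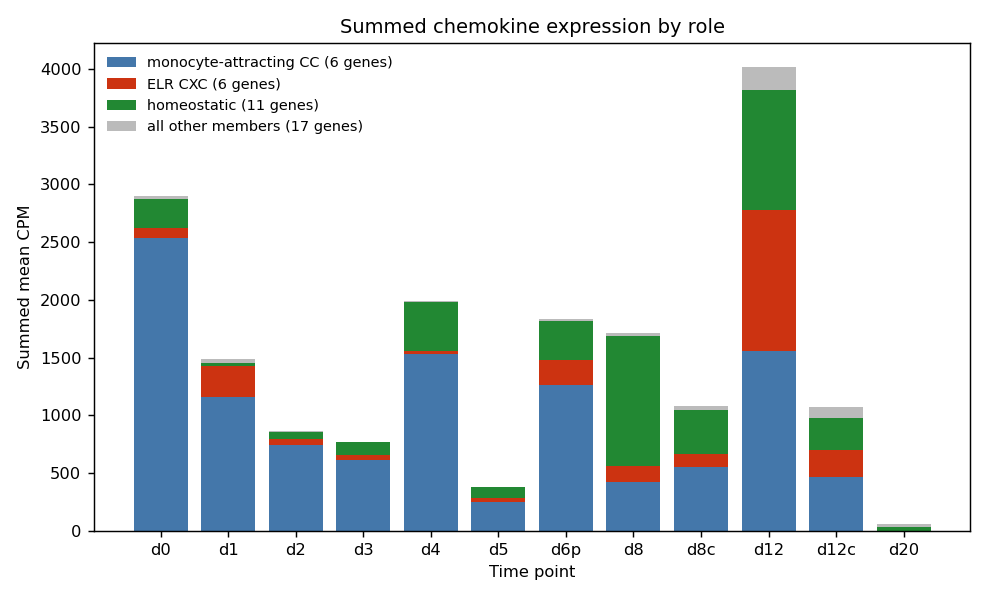
Summed mean level of the chemokine genes of each role by group, in CPM. Monocyte-attracting genes led at d0 with 2532 CPM and homeostatic genes at d8 with 1128 CPM, and the ELR genes stood at 1226 CPM at d12.

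After 1 day of treatment the sum was lower and single members differed in both directions. At d1 the summed level was 1487 CPM against 2902 CPM at d0, a log2 difference of -0.96 (counting interval -0.99 to -0.94; 41193 against 128465 UMIs). Differences of single genes are given on the scale of log2(mean CPM + 1), among genes with a mean of at least 5 CPM in either group, and a difference of over 2 (over 4-fold) is counted. The d1 cells also differed from d0 in fibroblast markers, with a sum of 1981 against 3178 CPM. Of 9 that passed, Twist2 (2.13) and Pdgfra (2.03) were higher, beside 2.56% of all genes. Pdgfrb (-2.90) and Col1a2 (-2.03) were lower, beside 3.82%. Of 13 members that passed this filter, 3 were higher, beside 2.56% of all 9514 genes, and 4 lower, beside 3.82%, and 3 of the 3 and 2 of the 4 passed by the level of 1 group alone. Ppbp, whose product is processed into neutrophil attractants, was higher by 5.03, the eotaxin gene Ccl11 by 3.19 and Ccl12 by 2.20. Those lower were Cxcl14 (-3.54), Cxcl2 (-3.11), Cxcl12 (-3.08) and Ccl17 (-3.07). Of these, only Cxcl12 kept a difference of over 2 in all 15 alternative settings that gave a value. Ccl11 and Ccl12 rested on 1 cell each, which held 96.02% and 97.4% of the d1 sum of that gene. Without the cell with the highest chemokine sum in each group, Ccl12 had the opposite sign, at -1.07, while Ccl11 stayed past 2. Cxcl2 rested on 1 d0 cell. Ccl17 rested largely on 1 d0 cell with 397 CPM and was not past 2 in cells numbered 1 to 48. The median difference of the 13 members was -0.48, beside 0.02 over all genes.

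Of the comparisons made, d12 against d0 had the most members on the higher side. Of 19 members that passed the filter, 12 were higher, beside 9.58% of all 9942 genes, and 2 lower, beside 5.27%. Of these 12, 8 passed the filter by their d12 level alone, as their d0 means were below 5 CPM (Ccl8, Ccl12, Ccl20, Ccl25, Cx3cl1, Cxcl3, Cxcl10 and Cxcl15), so a difference to the lower side could not have been counted at these d0 levels. The largest were Cxcl2 (5.60), the Ccr6 ligand Ccl20 (5.50), Cxcl3 (4.97) and the interferon-inducible gene Cxcl10 (4.63), followed by Ccl8 (4.45), Cxcl1 (3.82), Cx3cl1 (3.06), Ccl25 (2.80), Cxcl12 (2.74), Cxcl15 (2.63), Cxcl5 (2.56) and Ccl12 (2.07). The 5 ELR genes that passed the filter were on this list, while Ppbp, at 3.08 and 2.82 CPM, did not pass. Cxcl15 and Ccl12 were the least stable, each past 2 in 10 of 16 alternatives. Lower were Ccl17 (-2.98) and Ccl5 (-2.67). Ccl17 rested largely on 1 d0 cell with 397 CPM and was not past 2 in cells numbered 1 to 48. Ccl12 and Ccl5 had the opposite sign in cells numbered above 48, at -0.36 and 0.69. The difference of the sum was small beside these, at 0.47 (counting interval 0.46 to 0.48), with Ccl2 lower at d12 than at d0, while cells numbered 1 to 48 gave 0.80 and cells above 48 gave 0.0186. The median difference of the 19 members was 2.63, or 2.56 with a floor of 3 UMIs in place of a level of 0, beside -0.14 over all genes. With log2 values averaged over cells in place of means, which gives high cells less weight, 6 members were higher and none lower.

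At d20 most members that the earlier groups expressed had few UMIs or none. The summed level was 50.2-fold lower than at d0, a log2 difference of -5.63 (counting interval -5.76 to -5.49), and 69.6-fold lower than at d12 (-6.10, -6.23 to -5.96), from 479 UMIs at d20. Against d0, 9 of 13 members that passed the filter were lower, beside 10.1% of 10157 genes, and 1 was higher, beside 9.03%. Against d12, 13 of 17 were lower, beside 14.3% of 10441 genes, and none was higher, beside 11.8%. Of the lower members, 8 of the 9 and 12 of the 13 passed by their level in the earlier group alone, 5 and 9 of them with no UMI at d20, and only Cxcl14 was at 5 CPM or more at d20. Both comparisons share the d20 cells. The d12 cells and the d20 cells also differed in fibroblast markers, as given above, and the part of this in the chemokine values was not tested. The member higher than at d0 was Cx3cl1, at 2.23, which was not past 2 with ERCC counts in the library size, with UMIs summed over cells, with averaged log2 values, in cells numbered above 48 or with a pseudocount of 10. Lower than at d0 were Ccl2 (-10.12), Ccl7 (-9.88), Cxcl5 (-5.53), Cxcl1 (-5.10), Cxcl14 (-4.21), Cxcl12 (-4.03), Ccl5 (-3.59), Cxcl2 (-3.16) and Ccl17 (-3.07). With averaged log2 values 4 stayed past 2, and Cxcl5, Cxcl1, Ccl5, Cxcl2 and Ccl17 did not. The last 3 were also not past 2 with a pseudocount of 10. Neither were Cxcl2 and Ccl17 in cells numbered 1 to 48, Ccl5 in cells above 48, or Cxcl2 without the cell with the highest chemokine sum in each group. Ccl17 rested largely on 1 d0 cell. Lower than at d12 were Ccl7 (-9.65), Cxcl1 (-8.92), Ccl2 (-8.81), Cxcl2 (-8.76), Cxcl5 (-8.09), Ccl20 (-7.10), Cxcl12 (-6.77), Cxcl14 (-5.92), Ccl8 (-5.58), Cxcl3 (-4.98), Cxcl10 (-4.98), Ccl12 (-3.54) and Cxcl15 (-2.63). Of these, Cxcl3, Cxcl10, Ccl12 and Cxcl15 were not past 2 with averaged log2 values. Nor were Cxcl10, Ccl12 and Cxcl15 in cells numbered above 48, or Ccl12 and Cxcl15 with a pseudocount of 10. Cxcl15 was past 2 in 10 of 16 alternatives. The median member difference was -3.59 against d0 and -5.58 against d12 (-3.16 and -5.16 with the floor), beside 0.19 and 0.32 over all genes. Other scaling moved the log2 ratio of every gene, before the pseudocount, by 0.18 (TMM) or 0.17 (DESeq2 factors) for d12 against d0. The shift was -0.26 or -0.15 for d20 against d0 and -0.44 or -0.32 for d20 against d12. This is small beside the member differences, and no counted member had the opposite sign under either. Of all genes past 2 in d20 against d12, 45.2% were higher, and 29.8% or 33.5% were with these scalings.

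**Figure D2:**
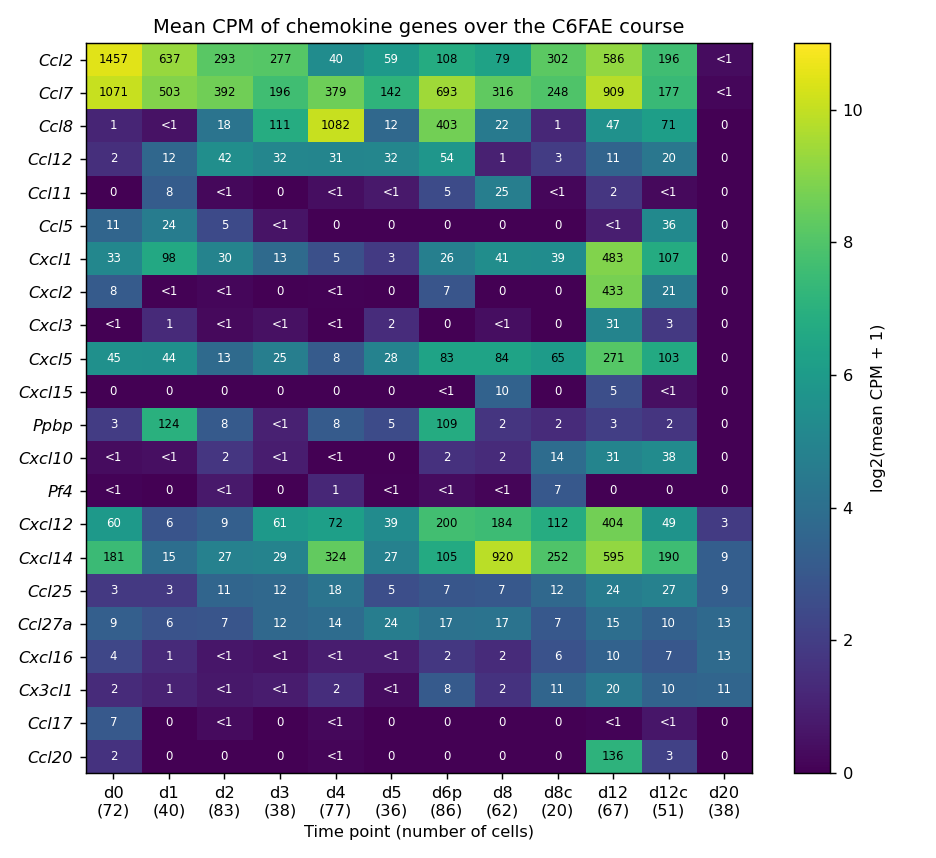
Mean level of each named chemokine gene in each group, as log2(mean CPM + 1), with genes ordered by role and groups by day. Ccl2 stood at 1457 CPM at d0 and Cxcl1 at 483 CPM at d12, while at d20 no gene was above 13.1 CPM, the level of Cxcl16.

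Ccl2 and Ccl7, whose products bind Ccr2 and draw monocytes out of the blood, were the most abundant members in untreated MEFs. Ccl2 averaged 1457 CPM at d0, 637 at d1, 293 at d2, 277 at d3, 40.2 at d4, 59.4 at d5, 108 at d6p, 79.3 at d8, 302 at d8c, 586 at d12, 196 at d12c and 0.306 at d20. Every kept d0 cell had a UMI of it, from 4.16 to 14061 CPM with a median of 567 CPM, and 51 of 72 cells held at least 100 CPM. By d4 the median was 1.95 CPM and 7 of 77 cells reached 100 CPM, by d12 the median was 60.2 CPM with 27 of 67 cells at that level, and d12 again had a UMI in every cell. Ccl2 was thus high at d0, low from d4 to d8 and high again in part of the d12 cells, at a mean of 663 CPM in cells numbered 1 to 48 and 429 CPM above 48. At d20 it had 2 UMIs (95% Poisson interval 0.242 to 7.22) in 38 cells, and by pooled UMIs it was lower than at d0 by 7363-fold (95% counting interval 2038 to 60797). Its entry overlaps that of Gm17268 on the other strand, and whether counting used strand is not stated.

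Ccl7 averaged 1071 CPM at d0, 503 at d1, 392 at d2, 196 at d3, 379 at d4, 142 at d5, 693 at d6p, 316 at d8, 248 at d8c, 909 at d12, 177 at d12c and 0.134 at d20. It stood below Ccl2 at d0, where the ratio of means was 0.735, and far above it at d4 (9.42), d6p (6.44) and d8 (3.98), with 1.55 at d12. The pair therefore did not keep a fixed ratio over the course, and Ccl7 was the larger at d2, d4, d5, d6p, d8 and d12 and the smaller in the other groups, such as d3 (0.708) and d8c (0.822). The d12 cells held from 48.4 to 5097 CPM of Ccl7, median 169, and 49 of 67 cells reached 100 CPM, with means of 972 CPM in cells numbered 1 to 48 and 780.4 CPM above 48. At d20 a single UMI was found, lower than at d12 by 8717-fold (95% counting interval 1564 to 344303). Across d0 cells, Ccl2 and Ccl7 went together with a Spearman correlation of 0.66 (n = 72), and 40 of 72 cells held both at 100 CPM or more while 11 held neither. The correlation was 0.81 at d2 (n = 83) and 0.37 at d12 (n = 67); cells of a group share culture and library, so these values are descriptions.

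Ccl8, a CC chemokine gene beside Ccl12 in the same cluster, had a mean that rested on few cells. Its mean was 1.20 CPM at d0, 0.458 at d1, 18.1 at d2, 111 at d3, 1082 at d4, 12.3 at d5, 403 at d6p, 22.4 at d8, 1.32 at d8c, 46.9 at d12, 71.2 at d12c and 0 at d20. The d4 value came from a cell in which Ccl8 was the most abundant gene, with 7.42% of its UMIs, and which had a UMI of 0 of 13 leukocyte markers and 992 CPM of Col1a1. Without that cell the d4 mean was 120.3 CPM, and in the 37 cells numbered above 48 it was 13.4 CPM. At d6p, 22 of 86 cells reached 100 CPM, against 7 of 67 cells at d12 and none of 72 at d0. Ccl12, a mouse Ccr2 ligand, averaged 1.77 CPM at d0, 11.8 at d1, 41.8 at d2, 31.9 at d3, 31.4 at d4, 32.3 at d5, 54.0 at d6p, 1.04 at d8, 2.89 at d8c, 10.6 at d12, 19.8 at d12c and 0 at d20. Here too single cells weighed heavily: at d6p the highest cell held 3397 CPM of Ccl12 together with 20335 CPM of Ccl7, the highest Ccl7 level in the group, and without it the Ccl12 mean was 14.6 CPM. The remaining genes of this role stayed low, with means of at most 2.67 CPM for Ccl9, at d1, and 0.312 CPM for Ccl6, at d8.

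The eosinophil attractant Ccl11 lies between Ccl7 and Ccl12 but was rarely expressed. Its mean was 0 CPM at d0, 8.12 at d1, 0.165 at d2, 0 at d3, 0.311 at d4, 0.670 at d5, 4.75 at d6p, 25.2 at d8, 0.159 at d8c, 2.37 at d12, 0.200 at d12c and 0 at d20. The d8 value rested on 1 cell with 1264 CPM, which was also the d8 cell with the most Cxcl14, and without it was 4.84 CPM. At d1 the highest cell held 96.02% of the sum, while d0 had 0 UMIs in 72 cells, so that by pooled UMIs d1 was at least 68.9-fold higher against a floor of 3 UMIs over the d0 group. Ccl5, which attracts T cells and monocytes, averaged 11.02 CPM at d0, 23.9 at d1, 4.54 at d2, 0.481 at d3, 0 at d4, 0 at d5, 0 at d6p, 0 at d8, 0 at d8c, 0.882 at d12, 35.8 at d12c and 0 at d20. The highest cells again set the peaks, with 1783 CPM at d12c, in a cell that also held the most Cxcl10 of the group (1637 CPM), and 920.5 CPM at d1; without them the means were 0.857 and 0.895 CPM.

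The ELR genes Cxcl1, Cxcl2, Cxcl3 and Cxcl5, whose products attract neutrophils through Cxcr2, were highest at d12. Cxcl1 averaged 33.3 CPM at d0, 98.2 at d1, 29.7 at d2, 13.0 at d3, 5.50 at d4, 2.60 at d5, 25.7 at d6p, 41.2 at d8, 39.2 at d8c, 483 at d12, 107 at d12c and 0 at d20. At d12 every cell had a UMI of it, from 18.1 to 6529 CPM with a median of 148 CPM, and 40 of 67 cells held at least 100 CPM, against 8 of 72 cells at d0 and 5 of 62 cells at d8. The mean at d12 was 14.5-fold that at d0, and 571 and 303 CPM in cells numbered 1 to 48 and above 48, so both ranges were high. At d20 no UMI was found in 38 cells, which allows a share with a UMI of up to 7.89% (3 of 38), and by pooled UMIs the gene was at least 1667-fold lower than at d12, against a floor of 3 UMIs over the d20 group. Cxcl2 stood at a mean of 7.96 CPM at d0, 0.0375 at d1, 0.155 at d2, 0 at d3, 0.0537 at d4, 0 at d5, 6.52 at d6p, 0 at d8, 0 at d8c, 433 at d12, 21.2 at d12c and 0 at d20. Most of it was at d12 and the d12c cells with low numbers: 24 of 67 cells reached 100 CPM at d12, 3 of 51 cells at d12c, 2 of 86 cells at d6p and 1 of 72 cells at d0, and the d0 mean was 0.593 CPM without its highest cell. The d12 mean was 559 CPM in cells numbered 1 to 48 and 174 CPM above 48, and at d20 the gene was at least 1421-fold lower by the same bound.

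**Figure D3:**
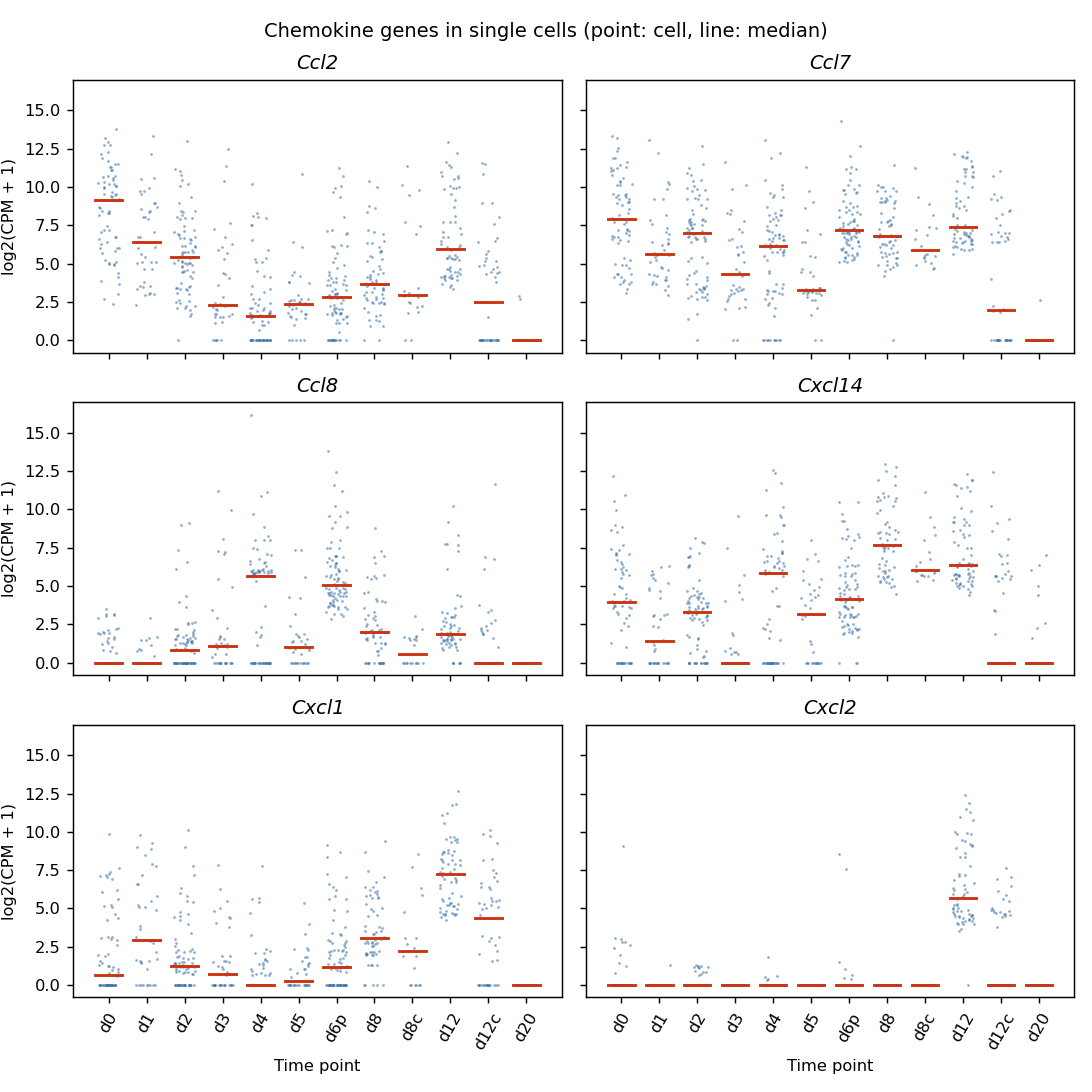
Level of Ccl2, Ccl7, Ccl8, Cxcl14, Cxcl1 and Cxcl2 in each kept cell by group, as log2(CPM + 1); a point is a cell and a line the median of the group. The median of Ccl2 was 567 CPM at d0 and that of Cxcl1 148 CPM at d12, and the dense low bands, as of Ccl8 at d4, are the levels shared by most cells of a number range.

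Cxcl5 averaged 45.1 CPM at d0, 43.9 at d1, 13.0 at d2, 25.2 at d3, 7.91 at d4, 28.2 at d5, 82.8 at d6p, 83.5 at d8, 64.5 at d8c, 271 at d12, 103 at d12c and 0 at d20. Its course was less sharp than that of Cxcl2, with levels from d6p to d12c above that at d0 and a d12 mean of 6.02 times the d0 mean. The d12c mean rested largely on 1 cell with 2890 CPM. In cells numbered above 48 the difference between d12 and d0 was not past 2, at means of 196 and 67.0 CPM, and at d20 the gene was at least 937-fold lower than at d12. Cxcl3 averaged 0.00730 CPM at d0, 1.49 at d1, 0.217 at d2, 0.406 at d3, 0.00364 at d4, 1.65 at d5, 0 at d6p, 0.335 at d8, 0 at d8c, 30.6 at d12, 2.59 at d12c and 0 at d20. Only 4 of 67 cells at d12 reached 100 CPM. With 1 UMI at d0, it was higher at d12 by 1142-fold (95% counting interval 205 to 45144). Cxcl15, best known from lung epithelium, had UMIs in d6p, d8, d12 and d12c cells only, with means of 0.0120, 10.0, 5.17 and 0.365 CPM and 0 in the other groups; without the highest cell the d8 and d12 means were 3.30 and 0.777 CPM. Against d0, which had 0 UMIs in 72 cells, its pooled level at d12 was at least 106-fold higher.

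Ppbp followed another course, with a mean of 2.82 CPM at d0, 124 at d1, 7.62 at d2, 0.996 at d3, 7.87 at d4, 4.74 at d5, 109 at d6p, 2.23 at d8, 1.59 at d8c, 3.08 at d12, 2.25 at d12c and 0 at d20. Its peak at d1 was the largest member difference of the first day and was seen in 4 of 40 cells at 100 CPM or more, the highest with 3643 CPM; without that cell the mean was 33.8 CPM, still above the 2.82 CPM of d0. At d6p a single cell with 8632 CPM held 92.0% of the sum. Platelet markers were low in the same groups: that d6p cell had 4113 CPM of Col1a1, Gp9 was at 0 in all groups, and the 5 platelet and megakaryocyte markers summed to 0.355 CPM at d1 and 2.94 CPM at d6p. Pf4, the platelet gene next to Ppbp, reached its highest mean at d8c with 7.23 CPM, all from 1 of 20 cells, and was at 0 at d12, d12c and d20.

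Within d12 the ELR genes were often present in the same cells. With a limit of 20 CPM, 6 of 67 cells held all of Cxcl1, Cxcl2, Cxcl3 and Cxcl5, 39 held 3 of them, 16 held 2, 6 held 1 and none was without; 66 of the 67 cells reached this limit for Cxcl1. With a limit of 100 CPM, 4 cells held all, 9 held 3, 14 held 2, 18 held 1 and 22 held none. In the other groups, 12 of 51 d12c cells held 3 of these genes and 2 held all at 20 CPM or more, and 1 of 86 d6p cells held 3; at 100 CPM a single cell, at d12c, held 3 and none held all. Spearman correlations across the 67 cells were 0.52 for Cxcl1 with Cxcl2, 0.50 for Cxcl1 with Cxcl5 and 0.53 for Cxcl2 with Cxcl5, but -0.08, 0.23 and 0.13 for Cxcl3 with Cxcl1, Cxcl2 and Cxcl5, while the median over the 105 pairs of members compared at d12 was 0.04. Ccl2 and Ccl7 correlated at 0.37 in these cells. Depth, culture and library are shared by the points.

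Among the interferon-inducible ligands of Cxcr3, Cxcl10 alone reached 5 CPM in a group. It averaged 0.273 CPM at d0, 0.373 at d1, 2.35 at d2, 0.847 at d3, 0.0126 at d4, 0 at d5, 1.97 at d6p, 1.59 at d8, 13.9 at d8c, 30.6 at d12, 38.3 at d12c and 0 at d20. The values at d12 and d12c rested on few cells, as 3 of 67 cells and 2 of 51 cells reached 100 CPM and the means without the highest cell were 6.65 and 6.32 CPM. The difference between d12 and d0 was not past 2 in cells numbered above 48, where d12 averaged 3.33 CPM. The gene overlaps Art3 on the other strand. Cxcl9 and Cxcl11 stayed at or below 1.42 CPM.

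Cxcl14 and Cxcl12, expressed by stromal cells of many tissues, were the most abundant homeostatic members. Cxcl14 averaged 181 CPM at d0, 14.7 at d1, 27.4 at d2, 29.0 at d3, 324 at d4, 27.3 at d5, 105 at d6p, 920.3 at d8, 252 at d8c, 595 at d12, 190.3 at d12c and 8.85 at d20. It was low from d1 to d3 and high at d8, where every cell held at least 20.8 CPM, the median was 206 CPM and 40 of 62 cells reached 100 CPM, with means of 954 and 849 CPM in the lower and higher cell numbers. At d4 the ranges disagreed, with 609 CPM in cells numbered 1 to 48 and 16.3 CPM above 48, and at d12c they did as well, with 461 and 0.726 CPM. At d20 it was 20.5-fold lower than at d0 and had a UMI in 8 of 38 cells. Cxcl12, the ligand of Cxcr4 and of the scavenging receptor Ackr3, averaged 59.6 CPM at d0, 6.15 at d1, 9.07 at d2, 61.1 at d3, 72.1 at d4, 38.9 at d5, 200.1 at d6p, 184 at d8, 112 at d8c, 404 at d12, 49.5 at d12c and 2.71 at d20. Of these levels the d1 value was 9.70-fold below d0 and the d12 value 6.78-fold above it, and both kept a difference of over 2 in every alternative setting. In d12 cells the median was 109.6 CPM and 36 of 67 cells reached 100 CPM, with similar means in the ranges (400.1 and 412 CPM), and at d20 3 of 38 cells had a UMI.

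Ccl25 and Ccl27a, known from thymus and gut and from skin, were among the few members still measured at d20. Ccl25 averaged 2.57 CPM at d0, 2.54 at d1, 11.1 at d2, 12.2 at d3, 17.9 at d4, 5.27 at d5, 6.61 at d6p, 7.10 at d8, 12.2 at d8c, 23.8 at d12, 27.5 at d12c and 8.76 at d20. Its highest mean, at d12c, was 13.8 CPM without the highest cell, and at d20 8 of 38 cells had a UMI. Ccl27a stayed within a narrow range, with a mean of 8.95 CPM at d0, 6.13 at d1, 6.57 at d2, 12.0 at d3, 14.0 at d4, 24.0 at d5, 16.5 at d6p, 17.0 at d8, 7.15 at d8c, 14.6 at d12, 9.68 at d12c and 12.7 at d20. No comparison put Ccl27a past 2. Its entry overlaps Il11ra1 on the other strand and has a near-identical copy, Ccl27b, at 0, and Ccl25 has a pair of overlapping entries in the annotation, so these values are uncertain. Cxcl13 and Cxcl17 stayed below 5 CPM, at most 4.69 CPM at d2 and 2.33 CPM at d12.

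The membrane-anchored chemokines Cx3cl1 and Cxcl16, which also serve as adhesion molecules, were not low at d20. Cx3cl1 averaged 1.56 CPM at d0, 1.05 at d1, 0.647 at d2, 0.805 at d3, 1.68 at d4, 0.276 at d5, 7.58 at d6p, 2.03 at d8, 11.1 at d8c, 20.3 at d12, 10.4 at d12c and 11.04 at d20. At d20, 14 of 38 cells had a UMI (36.8%, 95% interval 21.8% to 54.0%), against 4 of 72 at d0 (5.56%, 1.53% to 13.6%), and 7 and 1 cells held at least 20 CPM. After thinning, 22.2% of d20 and 2.82% of d0 cells had a UMI, so the d20 share was also the larger at equal depth. Cxcl16 averaged 4.14 CPM at d0, 1.49 at d1, 0.606 at d2, 0.440 at d3, 0.830 at d4, 0.838 at d5, 2.39 at d6p, 1.57 at d8, 5.89 at d8c, 10.0 at d12, 6.84 at d12c and 13.1 at d20. Its d20 mean, the highest, came from 6 cells and was 6.68 CPM without the highest; its entry overlaps Zmynd15 on the other strand. These genes made up 41.8% of the summed member level at d20, against 0.196% at d0, of a total of 57.8 and 2902 CPM.

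Ccl20, which attracts Ccr6-bearing lymphocytes and dendritic cells, was almost absent before d12. It had 193 UMIs in 1 d0 cell, 15 UMIs at d4 and none at d1, d2, d3, d5, d6p, d8, d8c or d20, with means of 2.02 CPM at d0, 0.113 at d4, 136 at d12 and 3.37 at d12c. Of the d12 cells, 60 of 67 had a UMI with a median of 5.14 CPM, but 5 held at least 20 CPM and the highest held 6714 CPM, without which the mean was 36.4 CPM. High Ccl20 was thus a property of 5 of 67 cells (7.46%), in both ranges of numbers, and the low level in the others is of the kind described above. Ccl17, a Ccr4 ligand, had a mean of 7.41 CPM at d0, from 6 of 72 cells, and at most 0.590 CPM in any other group, the value at d12c. At d20 it had no UMI and was at least 23.1-fold lower than at d0. The d0 mean, and with it this bound, rested largely on 1 cell with 397 CPM.

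The other members added little. Below 5 CPM in every group were Ccl1, Ccl4, Ccl6, Ccl9, Ccl24, Cxcl9, Cxcl11, Cxcl13 and Cxcl17. Ccl19, Ccl21a, Ccl21b, Ccl21c, Ccl22, Ccl26, Ccl27b, Ccl3 and Xcl1 had no UMI in any of the 808 deposited cells; the Ccl21 and Ccl27 copies are nearly identical in sequence, and counts of such copies can be split or lost. Over the 22 named members, the highest group mean was at d12 for 7 (Ccl20, Cx3cl1, Cxcl1, Cxcl12, Cxcl2, Cxcl3 and Cxcl5), at d0 for Ccl17, Ccl2 and Ccl7, at d8 for Ccl11, Cxcl14 and Cxcl15 and at d12c for Ccl25, Ccl5 and Cxcl10. No named member had its highest mean at d2 or d3. Without the highest cell of each group in the gene, the highest mean stayed in the same group for 16 of 22 and was in another for 6, namely Ccl5 (d0), Ccl8 (d6p), Ccl12 (d4), Ccl25 (d12), Cxcl10 (d12) and Pf4 (d4).

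The colonies picked at day 12 showed both kinds of profile, split by cell number. Kept d12c cells numbered up to 24 (n = 21) averaged 458 CPM of Ccl2, 399.7 of Ccl7, 461 of Cxcl14 and 249 of Cxcl5, and those above 48 (n = 30) averaged 13.2, 21.2, 0.726 and 0 CPM. The value of 249 CPM rested largely on 1 cell with 2890 CPM of Cxcl5. None of the 24 cells numbered 25 to 48 was kept, and the 45 removed d12c cells had a mean sum of 163 CPM with a median of 0, so the kept cells do not stand for all cells of these colonies. The fibroblast gene Col1a1 averaged 1468 and 4.64 CPM and the XEN gene Sox17 212 and 650.4 CPM in the same ranges. The cells with low numbers were thus high in chemokine genes and Col1a1, and those with high numbers low in both and high in Sox17; what separates the ranges is not stated, so cell state and processing cannot be told apart. Cxcl1 was an exception, at 189 and 49.3 CPM, with 3 of 30 cells above 48 at 100 CPM or more.

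Position in the genome was not used to choose the members, and most lie in clusters. In the GENCODE M1 annotation of the mm9 build (NCBIM37), 13 members lie on chromosome 5, 12 on chromosome 11, 6 on chromosome 4 and 4 on chromosome 8. Ccl2, Ccl7, Ccl11, Ccl12 and Ccl8 follow each other on the plus strand within 81229 bases (chr11:81849073-81930301), with Ccl2 at chr11:81849073-81850955 and Ccl7 at chr11:81859214-81861027. In this cluster Ccl2 and Ccl7 were highest at d0, Ccl8 at d4, Ccl12 at d6p and Ccl11 at d8, so Ccl2 and Ccl7 shared a peak and the other neighbours did not; without the highest cell of each group in the gene, the highest means of Ccl8 and Ccl12 were at d6p and d4. Cxcl5, Ppbp, Pf4, Cxcl3, Cxcl15, Cxcl1 and Cxcl2 lie within 146611 bases (chr5:91188325-91334935), with Cxcl1 at chr5:91320267-91322141 and Cxcl2 at chr5:91332897-91334935. Of these, Cxcl1, Cxcl2, Cxcl3 and Cxcl5 were highest at d12, Cxcl15 at d8, Pf4 at d8c and Ppbp at d1. Cxcl12 (chr6:117118553-117131385) and Cxcl14 (chr13:56390008-56397912) are the only members on chromosomes 6 and 13.

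The promoters of named members were searched for sites of NF-kappaB, the factor through which inflammatory cytokines induce chemokine genes, and those with a match are shown. Promoter sequences from RefSeq (GRCm38.p6, a build other than that of the counts) were matched by symbol for 28 of 40 members, as 34 entries, and the 250 bases before each start were searched on both strands for the NF-kappaB (kappaB) consensus of 10 bases. Overlapping matches, on 1 strand or both, were joined. Of all 32851 promoters in the table, 2382 (7.25%) held a match, and of the 34 promoters of members 7 did (20.6%), each of another gene (Ccl1, Ccl9, Ccl20, Cxcl1, Cxcl2, Cxcl3 and Cxcl10). The sequences run from 5′ to 3′ in the sense of the gene, with matches in capitals, for Cxcl1 (chr5:90890995-90891244 on the plus strand), Cxcl2 (chr5:90903649-90903898 on the plus strand), Cxcl3 (chr5:90785851-90786100 on the plus strand), Ccl20 (chr1:83116516-83116765 on the plus strand) and Cxcl10 (chr5:92348890-92349139 on the minus strand).
Cxcl1: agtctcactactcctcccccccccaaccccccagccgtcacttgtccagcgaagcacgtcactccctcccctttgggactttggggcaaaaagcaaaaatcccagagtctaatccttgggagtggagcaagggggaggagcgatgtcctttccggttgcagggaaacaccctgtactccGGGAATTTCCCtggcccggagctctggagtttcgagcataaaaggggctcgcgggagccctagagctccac
Cxcl2: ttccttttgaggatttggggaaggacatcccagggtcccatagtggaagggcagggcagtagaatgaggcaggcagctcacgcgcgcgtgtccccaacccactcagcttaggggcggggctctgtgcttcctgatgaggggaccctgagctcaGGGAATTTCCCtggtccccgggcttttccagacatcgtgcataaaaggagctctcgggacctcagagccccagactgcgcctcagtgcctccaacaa
Cxcl3: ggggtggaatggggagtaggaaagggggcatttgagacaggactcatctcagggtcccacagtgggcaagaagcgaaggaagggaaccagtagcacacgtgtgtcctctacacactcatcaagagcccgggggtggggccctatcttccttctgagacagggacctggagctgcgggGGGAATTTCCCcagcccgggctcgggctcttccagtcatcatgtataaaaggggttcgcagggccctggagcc
Ccl20: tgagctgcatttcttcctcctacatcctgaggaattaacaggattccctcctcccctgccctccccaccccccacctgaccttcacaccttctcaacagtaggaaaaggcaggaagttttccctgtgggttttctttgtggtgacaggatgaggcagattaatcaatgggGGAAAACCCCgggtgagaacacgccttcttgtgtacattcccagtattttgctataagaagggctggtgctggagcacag
Cxcl10: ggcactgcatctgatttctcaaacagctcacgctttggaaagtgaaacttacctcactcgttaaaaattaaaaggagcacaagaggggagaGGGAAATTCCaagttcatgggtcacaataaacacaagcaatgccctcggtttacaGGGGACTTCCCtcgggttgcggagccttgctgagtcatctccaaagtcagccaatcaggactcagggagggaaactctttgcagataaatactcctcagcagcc
Cxcl1, Cxcl2 and Cxcl3 share the run GGGAATTTCCC, which begins at -71, -97 and -73 relative to the start, and Ccl20 holds GGAAAACCCC, a match on the other strand, at -80. Cxcl10 has 2 runs, the first at -159. Of 16 named members searched, 5 had a match and all 5 were higher at d12 than at d0, but so were 6 of the 11 without a match (Ccl8, Cx3cl1, Ccl25, Cxcl12, Cxcl15 and Ccl12). Of the 5, Ccl20, Cxcl3 and Cxcl10 had d0 means below 5 CPM, and Cxcl3 and Cxcl10 were not past 2 with averaged log2 values. Of the 6 without a match, Ccl8, Cx3cl1, Ccl25, Cxcl15 and Ccl12 also had d0 means below 5 CPM. None of these was past 2 with averaged log2 values, while Cxcl12 was. Of the members without a match, Cx3cl1 and Cxcl12 had their highest mean at d12. A match is a description of the letters and does not show that the factor bound. Ccl2, Ccl4, Ccl5, Ccl7, Ccl11, Ccl21c, Ccl24, Ccl26, Cxcl5, Cxcl11, Cxcl16 and Cxcl17 had no entry.

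Genes of the pathway that induces chemokines were taken from lists of NF-kappaB components and targets (20 genes) and of upstream cytokines, receptors and factors (17 genes). Of 17 NF-kappaB genes that passed the filter, 3 were higher at d12 than at d0 and 1 lower, beside 9.58% and 5.27% of all genes. Higher were the inhibitors Nfkbia (1228 against 164 CPM, 2.89) and Tnfaip3 (27.7 against 1.78 CPM, 3.37) and the cofactor Bcl3 (30.5 against 2.09 CPM, 3.35), all of which are induced by the pathway itself. Tnfaip3 and Bcl3 passed the filter by their d12 level alone, so a lower level could not have been counted for them. The adhesion gene Icam1, also a target, was lower at d1 (-2.99), d12 (-2.19) and d20 (-5.62), so the list did not point in a single direction. At d20, 9 of 17 were lower than at d12, beside 14.3% of all genes, and none higher, led by Vcam1 (-6.20), Nfkb1 (-3.51), Icam1 (-3.43) and Nfkbia (-3.13), and against d0 Icam1, Vcam1 (-4.98) and Nfkb1 (-2.15) were lower, beside 10.1%. Vcam1, Nfkb1 and Icam1 were below 5 CPM at d20, so in both comparisons they passed by their level in the earlier group alone. The median of the list was 0.06 for d1 against d0, 1.20 for d12 against d0, -0.28 for d20 against d0 and -2.06 for d20 against d12.

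Of the upstream list, the cytokine gene Il6 had the largest difference at d12. It averaged 133 CPM there, against 1.71 CPM at d0 (5.63) and 0 at d20 (-7.07 against d12), and the transcription factor gene Cebpb, which acts at Il6 and chemokine promoters, was higher at d12 than at d0 by 2.53. These were 2 of 11 genes that passed the filter, beside 9.58% of all genes, and none was lower, beside 5.27%. Il6 passed by its d12 level alone, so a lower level could not have been counted for it. The d12 median of Il6 was 13.6 CPM. At d1, Il6st (-2.53) and Tlr4 (-2.35), receptors for Il6-type cytokines and for endotoxin, were lower, 2 of 10 genes beside 3.82% of all genes, and none was higher. Tlr4 passed by its d0 level alone. At d20, Tlr2 was higher than at d0 (2.36), 1 of 11 genes beside 9.03% of all genes. Cebpb (-3.55) and Cebpd (-2.71) were lower, 2 of 11 beside 10.1%. Against d12, 5 of 11 were lower, beside 14.3% of all genes, led by Il6, Cebpb (-6.08), Il1r1 (-3.48) and Cebpd (-3.15). Tlr2 was higher than at d12 (2.40), 1 of 11 beside 11.8%. In both comparisons Tlr2 passed by its d20 level alone. Il6 and Cebpb, below 5 CPM at d20, passed by their level in the earlier group alone. List medians were -0.21, 0.62, -1.51 and -1.79 for d1, d12 and d20 against d0 and d20 against d12. The cytokine genes Tnf, Il1a and Il1b averaged 0.0775, 0.933 and 0.748 CPM at d12, and Tnf was highest at d12c, at 3.03 CPM from 2 cells.

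Receptors for chemokines were mostly at or near 0. Of 18 receptor genes, 3, 3, 2 and 2 passed the filter for d1, d12 and d20 against d0 and for d20 against d12. Ccr1, a receptor of Ccl5 and Ccl7, was higher at d12 than at d0, at 50.8 against 0.876 CPM (4.79), with a d12 median of 4.51 CPM, and had no UMI at d8 or d20. It was 1 of 3 that passed, beside 9.58% of all genes, and none was lower, beside 5.27%. Ccr1 passed by its d12 level alone, so a lower level could not have been counted for it. Cxcr5 was lower at d20 than at d0 (-2.11), 1 of 2 beside 10.1% of all genes. Ccr1 was lower at d20 than at d12 (-5.69), 1 of 2 beside 14.3%. Both passed by their level in the earlier group alone. Cxcr2, the receptor of the ELR chemokines, had means from 98.1 CPM at d5 to 287 CPM at d8c, with 190.02 at d0, 101 at d12 and 141 at d20. It had a UMI in 76 of 77 cells at d4, 35 of 36 at d5 and every cell of the other groups. What underlies so even a presence was not tested. Ccr2 was at 0 in every group and Cxcr4 at no more than 0.0724 CPM. Of the 5 atypical receptors, which bind chemokines without signalling to migration, Ackr3 was higher at d12, at 362 CPM against 17.2 CPM at d0 (4.32) and 40.2 CPM at d20, and Ccrl2 stood at 0 at d0, 21.1 CPM at d12 (4.46) and 8.90 CPM at d20 (3.31). Only these 2 passed for d12 against d0, beside 9.58% of all genes higher. Of 2 that passed for d20 against d0, Ccrl2 alone was higher, beside 9.03%. Against d0, Ccrl2 passed by its later level alone. Ackr3 and its ligand gene Cxcl12 thus both had their highest mean at d12.

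For the 3 members with the most UMIs, the genes of most similar course were sought over the 12 groups among 12128 genes, by Pearson's r of log2(mean CPM + 1). Ccl7 was most like Efemp1 (r = 0.97), Prrx1 (0.96) and Micall1 (0.95), of which Efemp1 codes for a matrix protein and Prrx1 for a mesenchymal transcription factor. Prrx1 averaged 229 CPM at d0, 422 at d12 and 5.54 at d20, a low value at d20 that it shares with Ccl7. Ccl2 was most like Pafah1b1 (0.91), Emp1 (0.91) and Metrnl (0.90), and Cxcl14 most like Epha5 (0.93), Svep1 (0.92) and Itih5 (0.90). These values describe 12 group means of 1 sample and rest in part on the low level at d20.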

How the data were processed

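Chemokine genes were read from the table of counts that the authors deposited for 808 cells in 12 groups. According to the processing notes of the submitters, the counts are of distinct UMIs per gene and cell, from reads assigned to cells by barcode and mapped to transcripts of the mm9 build; the aligner is not named. The table held 23201 gene entries, of which 4 that repeat a date in place of a symbol were left out (26 entries carry dates), and 92 ERCC entries, which were left out of library sizes. The 5 counts of 100000 or more were multiples of 1000, so large counts were rounded; the largest count of a member was 23257.

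From these counts, CPM was computed per cell with at least 4000 detected genes and averaged over each group. Comparisons were d1, d12 and d20 against d0 and d20 against d12, on log2(mean CPM + 1), among genes with at least 5 CPM in either group, with a threshold of size of 2 and no test, since the table is 1 sample. Members with at least 5 CPM in some group (22) were named, the others were given together. Members, their roles and the lists (receptors, atypical receptors with older symbols, NF-kappaB pathway, upstream genes, and markers of leukocytes, endothelium, platelets, fibroblasts and XEN cells) were chosen with earlier results of these data known, and a few list genes are not reported here. The 16 alternatives of the plan varied the cell filter, library size, scaling (edgeR TMM, DESeq2), averaging, depth (thinning to 50000 UMIs, which left out 23 shallower cells), single cells, cell numbers, pseudocount, gene filter and threshold. Shares at 20 and 100 CPM, means without the cell highest in a member and role shares without the cell with the highest sum were added after the data were seen. Python 3.11.15, numpy 2.4.6, pandas 2.3.3, scipy 1.17.1, matplotlib 3.10.9, R 4.3.3, edgeR 4.0.16 and DESeq2 1.42.0 were used, and the steps were tested on simulated data.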

Additional observations from a re-analysis of the deposited data

How the results depend on the processing

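Every alternative gave the summed difference the sign of the main analysis. The setting without the highest cell left out the cell with the highest summed level of members in each group. Sums are given here where they lay outside the counting interval of the main value, and counts of members where they differed from the main count by over 1.5 times; the cause was not tested. The summed difference of d1 against d0 (-0.96) was -0.86 with all cells, -0.93 with a minimum of 2000 genes, -1.57 with a minimum of 6000 genes, -0.999 with TMM factors, -1.59 with UMIs summed over cells, -1.23 with the mean of log2 values, -1.39 with no highest cell and -0.70 with cells numbered 1 to 48. For d1 against d0, members higher (3) were 0 with the mean of log2 values, 1 with a pseudocount of 10 and 5 with a threshold of 1, and members lower (4) were 1 with the mean of log2 values, 2 with cells numbered 1 to 48 and 2 with a pseudocount of 10. The summed difference of d12 against d0 (0.47) was 0.51 with all cells, 0.40 with a minimum of 6000 genes, 0.35 with ERCC in the library size, 0.65 with TMM factors, 0.64 with DESeq2 factors, 0.52 with UMIs summed over cells, 1.25 with the mean of log2 values, 0.51 with thinning, 0.53 with no highest cell, 0.80 with cells numbered 1 to 48 and 0.0186 with cells numbered above 48. For d12 against d0, members higher (12) were 6 with the mean of log2 values and 7 with a pseudocount of 10, and members lower (2) were 1 with UMIs summed over cells, 0 with the mean of log2 values, 1 with thinning, 1 with cells numbered 1 to 48, 1 with cells numbered above 48 and 0 with a pseudocount of 10. The summed difference of d20 against d0 (-5.63) was -5.85 with a minimum of 6000 genes, -5.92 with ERCC in the library size, -5.88 with TMM factors, -5.78 with DESeq2 factors, -5.85 with UMIs summed over cells, -5.30 with cells numbered 1 to 48, -6.17 with cells numbered above 48 and -5.42 with a pseudocount of 10. For d20 against d0, members higher (1) were 0 with ERCC in the library size, 0 with UMIs summed over cells, 0 with the mean of log2 values, 0 with a pseudocount of 10 and 3 with a threshold of 1, and members lower (9) were 4 with the mean of log2 values. The summed difference of d20 against d12 (-6.10) was -6.25 with a minimum of 6000 genes, -6.27 with ERCC in the library size, -6.54 with TMM factors, -6.42 with DESeq2 factors, -6.37 with UMIs summed over cells, -6.96 with the mean of log2 values and -5.89 with a pseudocount of 10. The other counts differed less: members higher were 2 to 3, 9 to 14, 1 and 0 and members lower 3 to 6, 2 to 3, 6 to 9 and 9 to 14, in the order of the comparisons above; members lower in d20 against d12 (13) were 9 with the mean of log2 values, and members lower in d20 against d0 (9) were 6 with a pseudocount of 10.

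Of the 44 member differences past 2, 18 stayed past it under every alternative. The setting without the highest cell need not leave out the cell highest in a given member. A member carried by another cell could thus stay past 2 there, as Ccl11 did in d1 against d0. The gene filters and the threshold of 1 cannot end such a call. Over the 565 values under the other 13 alternatives, 488 were past 2, 72 had the same direction without being past it and 5 had the opposite sign. The latter were Ccl12 in d1 against d0 with a minimum of 6000 genes (-0.96), with the mean of log2 values (-0.45) and without the highest cell (-1.07), Ccl12 in d12 against d0 in cells numbered above 48 (-0.36) and Ccl5 in the same comparison and cells (0.69); the cause was not tested.

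The group d1 has no cell numbered above 48, so that comparison has no value there. No paired analysis was possible because the names of the cells do not show their batch. Cells are not replicates, time and batch cannot be told apart, and values of the pooled groups hold for the culture that was sampled. The depth limits members at low level: at the median of 195480 UMIs at d20, 1 UMI is about 5 CPM. A member well below that level is thus missed in most cells, while sums over the 38 cells reach lower. Means of members carried by 1 cell describe that cell.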
